A study of Mus musculus with 8 samples.

Results

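Striatal gene expression was compared between MPTP-treated mice that were needled at the hips, away from acupoints, and mice that received MPTP alone. The comparison used 4 of the 8 arrays of the series, 2 mice per group, and took non-acupoint mice 1 and 2 minus MPTP mice 1 and 2. It covered the 21789 probe sets that carry 1 gene symbol, of 35557 in the table, and 16342 of them passed a filter on low signal and were tested. These stand for 14890 genes.

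All mice were male C57BL/6 animals, 6 weeks old at the start, and both striata were taken from each. The MPTP group received MPTP hydrochloride by intraperitoneal injection at 20 mg/kg every 24 hours for 4 weeks and was not needled. The non-acupoint group received the same MPTP and had needles pushed 3 mm into both hips by hand and turned, in 14 sessions 48 hours apart that began shortly after the first injection. A further group received MPTP and the same needling at the leg and foot acupoints GB34 (3 mm) and LR3 (1 mm), and the control group received saline. The labels state that acupoint mice were held by hand and that the non-acupoint mice went through the same procedure, whereas no holding is stated for MPTP alone. Needling, handling and needle site therefore cannot be told apart in this comparison. Non-acupoint needling was the study's control for needle position, and set against MPTP alone it asks what needling away from acupoints does to the striatal transcriptome.

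MPTP is converted in glia to the toxic ion MPP+, which enters dopamine neurons through the dopamine transporter, blocks respiratory complex I and kills neurons of the substantia nigra that project to the striatum. The striatum itself consists mostly of GABA neurons, the medium spiny neurons of the direct pathway (marked by the dopamine receptor Drd1 and the peptides Tac1 and Pdyn) and of the indirect pathway (marked by Drd2 and Penk). Its inner face borders the lateral ventricle, which is lined by ciliated ependymal cells and contains the choroid plexus, and across the ventricle lies the septum. Values are RMA log2 signals, so a difference of 1 is a 2-fold difference, and values of different probe sets are not compared with each other.

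The 2 MPTP arrays were the least alike of the 4 groups. Their correlation over tested probe sets was 0.950, against 0.989 in the non-acupoint group and 0.995 in the control group, and 5.07% of probe sets differed by at least 1 between them, against 0.367% between the non-acupoint arrays. Averaged relative to controls, 14 thalamic marker genes stood at 2.37 and -0.54 in MPTP mice 1 and 2, against 0.16 and 1.43 in non-acupoint mice 1 and 2. For 22 genes of dopamine receptor and striatal cAMP signalling the same measure read -1.40 and 0.25 with MPTP alone and -0.15 and -0.48 with non-acupoint needling. MPTP mouse 1 thus carried more thalamic and less striatal signal than the other arrays, and both non-acupoint arrays lay between the 2 MPTP arrays on these measures. The part of these marker levels in the results was not tested beyond the fits with a marker covariate and with arrays left out that are given beside the results. In bulk tissue, fewer cells of a type and less RNA per cell cannot be told apart.

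No probe set passed the threshold in the comparison. With limma and Benjamini-Hochberg adjustment, 0 of 16342 probe sets (0%) had an adjusted p under 0.05, and the smallest adjusted p was 0.342. At an unadjusted p under 0.05 there were 1076 probe sets (6.58%), where 817 would be expected with no difference at all. Of these, 574 (3.51%) were higher and 502 (3.07%) lower with non-acupoint needling. After each array was centred on its median these became 664 higher and 301 lower, so the balance of directions depended on the scaling. The spread was shared by all 4 groups although the MPTP arrays differed most, so standard errors and p-values against MPTP alone may be too small. With array weights, 290 were higher and 170 lower at an unadjusted p under 0.05, and with the 4 compared arrays alone 353 and 188. The excess over 817 therefore cannot by itself show a difference. Over all tested probe sets 48.5% were higher in mean and 51.5% lower, with a median difference of -0.0067. In 15.4% both non-acupoint arrays lay above both MPTP arrays and in 17.6% both lay below. With MPTP mouse 2 left out, so that MPTP mouse 1 stood alone for its group and was assumed to vary like the others, 794 probe sets passed (573 higher, 221 lower), and with any other array left out 0 passed. The unadjusted counts moved as well, to 2001 higher and 1780 lower without MPTP mouse 2, 1309 and 1069 without MPTP mouse 1, and 311 and 203 without non-acupoint mouse 2. The differences below are therefore described by their size, their standard error (SE) and whether the 2 groups overlapped.

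Avpr1a and Glp1r, both markers of the lateral septum, had the smallest p-values among the genes that were higher. Glp1r encodes the receptor of the gut hormone and brain peptide GLP-1. Its log2 signal was 5.76 and 5.68 in MPTP mice 1 and 2 and 7.52 and 7.70 in non-acupoint mice 1 and 2. Both MPTP mice were low, and the non-acupoint mice were near the 2 controls, which both read 7.42. The difference was 1.89 (SE 0.21, 3.70-fold, adjusted p = 0.34). Avpr1a, the V1a vasopressin receptor, read 6.24 and 6.10 with MPTP alone and 7.26 and 7.14 with non-acupoint needling, and its difference was 1.04 (SE 0.11, 2.05-fold, adjusted p = 0.34). The controls read 7.03 and 7.14 for this receptor, so the needled mice were again close to them.

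Trpc4, a cation channel abundant in lateral septal neurons, read 6.36 and 7.87 with MPTP alone and 8.99 and 8.62 with non-acupoint needling. The groups did not overlap, but the 2 MPTP mice were far apart, and the difference of 1.69 had an SE of 0.45. All 6 lateral septum markers tested were higher in mean. Of these, 3 had an unadjusted p under 0.05, where 3.51% of all probe sets were higher by that rule, and in 5 the groups did not overlap, where 15.4% of all did so on the higher side. Their median difference was 0.93, against -0.0067 for all probe sets, and it lay between 0.59 and 1.12 when each array was left out. Relative to the control mean, the summed level of the list averaged -0.67 and -0.90 in MPTP mice 1 and 2 and 0.27 and 0.28 in the non-acupoint mice, so it was low in both MPTP arrays. This order differs from that of the thalamic markers, which were high in MPTP mouse 1 and low in MPTP mouse 2.

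Other receptors followed the same pattern across arrays. Galr1, a receptor for the peptide galanin, read 6.23 and 6.44 with MPTP alone and 7.64 and 7.44 with non-acupoint needling (difference 1.20, SE 0.22, adjusted p = 0.52). Prokr2, a prokineticin receptor, read 6.05 and 6.08 against 6.91 and 7.19 (difference 0.99, SE 0.14). Htr1a, the inhibitory serotonin 1A receptor, read 6.43 and 6.66 against 7.73 and 7.39 (difference 1.01, SE 0.26). For each of these receptors the groups were separate, as for 15.4% of all probe sets on the higher side. Galr1 was named by a rule that required this. The acupoint arrays lay between the MPTP and non-acupoint arrays, except 1 Htr1a value of 6.55 inside the MPTP range. Htr1a was the single serotonin receptor gene of 13 tested with an unadjusted p under 0.05, a share near the background of 6.58%. The list's median difference was 0.16, or -0.13 without MPTP mouse 1.

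The developmental transcription factor Eomes (Tbr2) read 5.38 and 5.33 with MPTP alone and 6.50 and 6.67 with non-acupoint needling. Its difference was 1.23 (SE 0.14, 2.35-fold, adjusted p = 0.34), and the controls at 5.97 and 6.03 lay between the 2 groups. Met, the receptor tyrosine kinase for hepatocyte growth factor, read 5.47 and 5.70 against 7.15 and 7.42 (difference 1.70, SE 0.28, adjusted p = 0.52). Cxcl5, a chemokine that attracts neutrophils, read 5.32 and 5.05 against 6.71 and 7.03 (difference 1.68, SE 0.23, adjusted p = 0.34). Cxcl5 was the 1 inflammatory mediator of 11 tested that was higher at an unadjusted p under 0.05 (background 3.51%). By the same rule 1 other mediator was lower (background 3.07%), and the median of that list was 0.03.

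When the mean of the thalamic markers entered the model as a covariate, 5 probe sets passed at an adjusted p of 0.0358, and all 5 were higher with non-acupoint needling. They were Avpr1a (1.04), Glp1r (1.90), Cxcl5 (1.70), Eomes (1.24) and Zic5 (1.76), a zinc finger transcription factor of dorsal midline tissue that was named after its values were seen. Zic5 read 7.40 and 6.00 with MPTP alone and 8.05 and 8.74 with non-acupoint needling, with a difference of 1.69 (SE 0.51) and no covariate. With the choroid plexus markers as the covariate, 0 probe sets passed, and 1184 higher and 1073 lower had an unadjusted p under 0.05. The first 4 of the 5 genes kept differences of 0.98 for Avpr1a, 1.64 for Glp1r, 1.39 for Cxcl5 and 1.08 for Eomes in that fit. For Zic5, whose MPTP arrays were far apart, the difference in that fit is not given here.

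**Figure D1:**
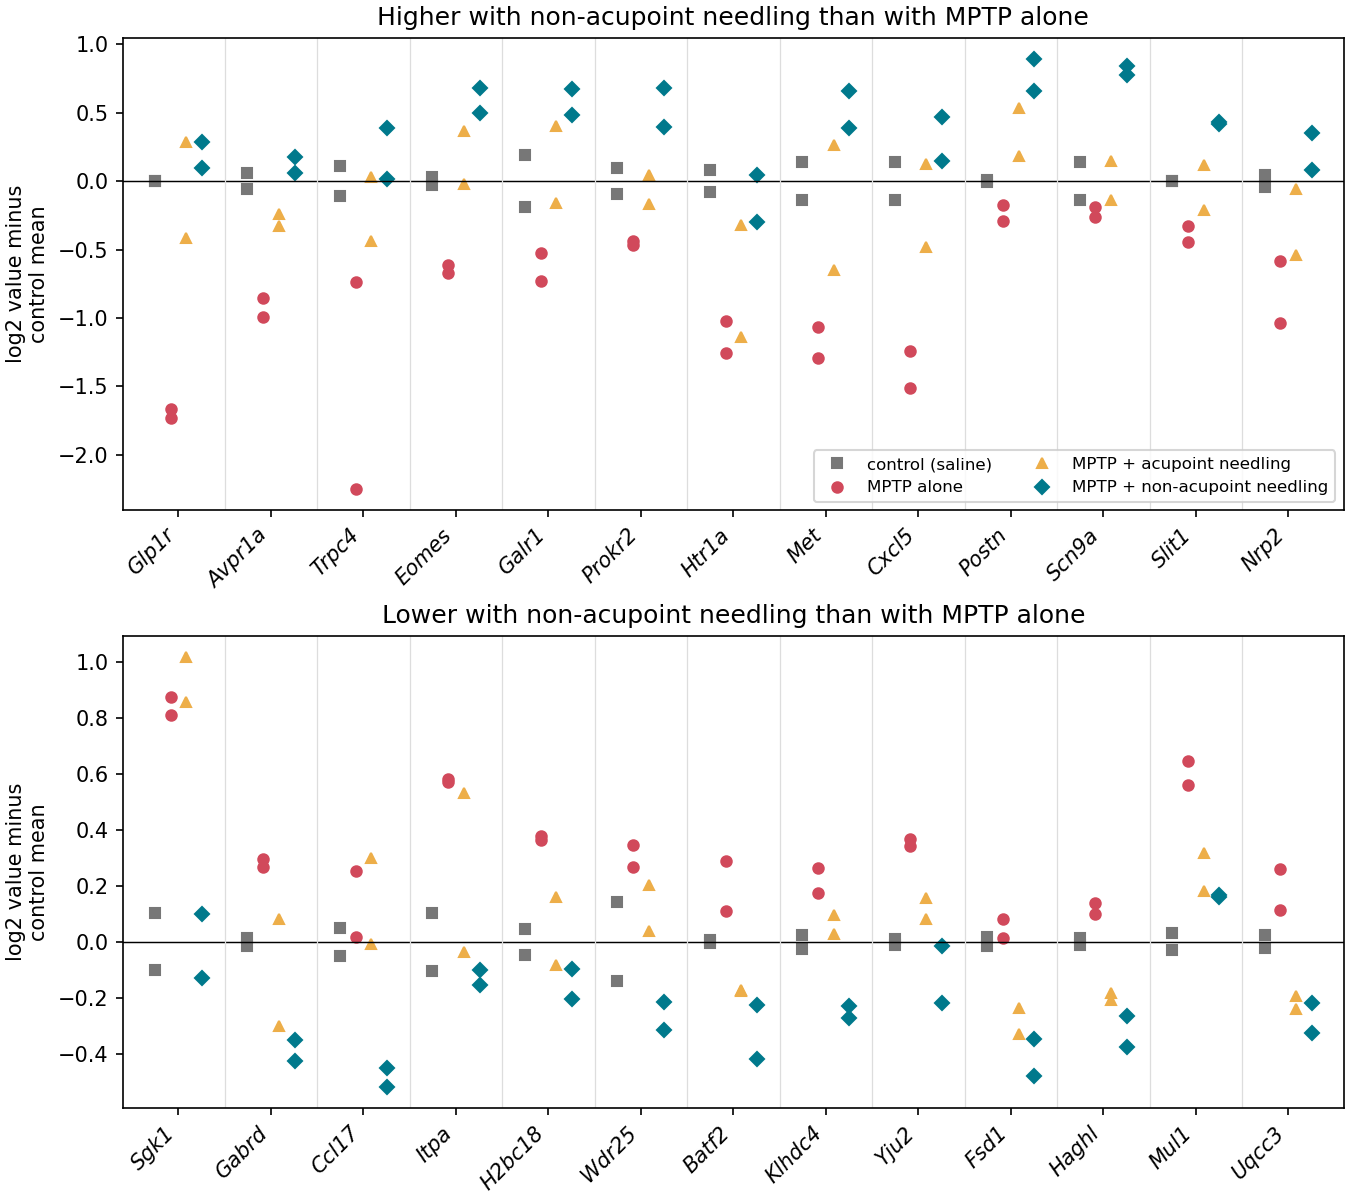
Log2 values on single arrays minus the mean of the 2 control arrays (y axis) for 13 genes that were higher (top) and 13 that were lower (bottom) with non-acupoint needling than with MPTP alone; each point is 1 mouse and colours give the 4 groups. Glp1r stands out at the upper left, with MPTP mice at 5.76 and 5.68 on the log2 scale and all non-acupoint and control values above 7.4, and Sgk1 at the lower left, with MPTP and acupoint mice high and non-acupoint and control mice low.

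The guidance gene Slit1 and the matrix gene Postn were among the higher genes named by rule for their small p-values. Slit1, a repulsive guidance ligand, read 7.19 and 7.30 with MPTP alone and 8.05 and 8.06 with non-acupoint needling (difference 0.81, SE 0.13, adjusted p = 0.48). Postn, the matrix protein periostin, read 5.14 and 5.03 against 5.98 and 6.21 (difference 1.01, SE 0.15, adjusted p = 0.34). Of 38 genes of the neuropilin, plexin, semaphorin, slit and robo families, a list drawn up after Slit1 had been seen, 28 were higher in mean (background 48.5%), 7 higher (background 3.51%) and 0 lower at an unadjusted p under 0.05, and the median difference was 0.11. Within it the semaphorin co-receptors Nrp1 and Nrp2 differed by 0.85 (SE 0.17) and 1.02 (SE 0.21), and the ligand Sema3c by 0.63 (SE 0.12). In all 3 of these the groups did not overlap, but they were picked after their values were seen. In the whole list, 10 genes lay higher (background 15.4%) and 2 lower (background 17.6%) with no overlap.

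Scn9a encodes the voltage-gated sodium channel Nav1.7. It read 5.28 and 5.21 with MPTP alone and 6.25 and 6.31 with non-acupoint needling, a difference of 1.03 (SE 0.14, adjusted p = 0.34). Here the controls (5.34 and 5.61) and the acupoint mice (5.62 and 5.33) were somewhat above MPTP alone, and the non-acupoint arrays stood above all 6 others. A second Scn9a probe set differed by 0.43. Zfp36l1, which binds AU-rich mRNAs and promotes their decay, had a smaller difference with little spread, from 7.29 and 7.28 to 7.87 and 7.93 (difference 0.62, SE 0.09).

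Ependymal genes were higher in mean without exception. Ependymal cells carry motile cilia whose axoneme contains outer and inner dynein arms and radial spokes, and their genes are controlled by the factors FOXJ1 and RFX. Of 16 ependymal markers tested, of 19 on the array, all 16 were higher in mean with non-acupoint needling. At an unadjusted p under 0.05, 13 were higher (background 3.51%) and 0 lower, and in 14 the groups did not overlap (background 15.4%). The median difference was 0.59, and it ranged from 0.44 to 0.82 with each array left out. With MPTP mouse 1 and non-acupoint mouse 2 both left out it was 0.38, and 15 of 16 were still higher in mean. The list averaged -0.47 and -0.29 in MPTP mice 1 and 2 relative to controls and 0.13 and 0.35 in non-acupoint mice 1 and 2. The acupoint mice averaged 0.10 and -0.14, and their median difference from the same MPTP arrays was 0.38. Set against acupoint needling, 15 of 16 were higher in mean at the hips, and 2 had an unadjusted p under 0.05 (background 2.12% higher).

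Rsph4a, a protein of the radial spoke head, read 6.02 and 6.31 with MPTP alone and 7.15 and 7.34 with non-acupoint needling (difference 1.08, SE 0.15, adjusted p = 0.34). Tmem212, a membrane protein used as an ependymal marker, read 6.11 and 6.65 against 7.36 and 7.52 (difference 1.06, SE 0.19). Rarres2, the secreted protein chemerin, read 6.41 and 6.52 against 7.05 and 7.29 (difference 0.71, SE 0.12). In each the 2 non-acupoint mice were the highest of the 8 arrays. That order did not hold for the ciliary genes Dnah6, Dynlrb2 and Cfap44 described below. There acupoint mouse 1 read 6.61, 6.63 and 6.64, above non-acupoint mouse 1 at 6.54, 6.48 and 6.48. Ak7, an adenylate kinase of cilia, read 6.20 and 6.94 against 7.57 and 7.83 and differed by 1.13 (SE 0.26).

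The motor proteins of the cilium were counted in lists drawn up after Dnah6 and Rsph4a had been seen. Of 13 axonemal dynein chains, 10 were higher in mean (background 48.5%), 7 higher (background 3.51%) and 0 lower at an unadjusted p under 0.05, with a median difference of 0.30. Dnah6, an inner arm heavy chain, read 5.48 and 5.60 with MPTP alone and 6.54 and 7.26 with non-acupoint needling (difference 1.36, SE 0.23, 2.56-fold), and its other 2 probe sets differed by 1.05 and 1.07. Dnah9, an outer arm heavy chain, read 5.96 on both MPTP arrays and 6.53 and 6.51 on the non-acupoint arrays (difference 0.56, SE 0.10). Dnah5, also of the outer arm, differed by 0.64 (SE 0.15). The dynein chains of the cilium were thus not uniform, since 3 of the 13 were lower in mean.

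Of 26 cilia and flagella associated proteins, 24 were higher in mean (background 48.5%) and 11 were so at an unadjusted p under 0.05 (background 3.51%), with a median of 0.31. That median was 0.15 without non-acupoint mouse 2, 0.48 without non-acupoint mouse 1, and 0.15 with 16 of 26 higher under the choroid plexus covariate. Cfap54 differed by 1.06 (SE 0.23) and Cfap44 by 0.77 (SE 0.16). Spef2, needed for sperm tails and airway cilia, had 14 probe sets. All 14 were higher in mean, but by unequal amounts, from 0.14 for the probe set with the highest signal to 1.19. The probe set chosen by the rule for naming genes read 5.57 and 5.52 against 6.39 and 6.86 (difference 1.09, SE 0.20). Spata18, a gene of mitochondrial quality control that is strongly expressed in ciliated cells, read 6.03 and 6.21 against 6.95 and 7.13 (difference 0.92, SE 0.13). Among 5 radial spoke proteins 3 were higher at an unadjusted p under 0.05 (background 3.51%). Of 4 tektins, 1 was higher (background 3.51%) and 1 lower (background 3.07%) by that rule. These lists share genes with the ependymal markers, namely Rsph4a, Rsph1, Tekt1, Tekt4, Dnah12 and Cfap126, so their counts are not separate evidence.

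**Figure D2:**
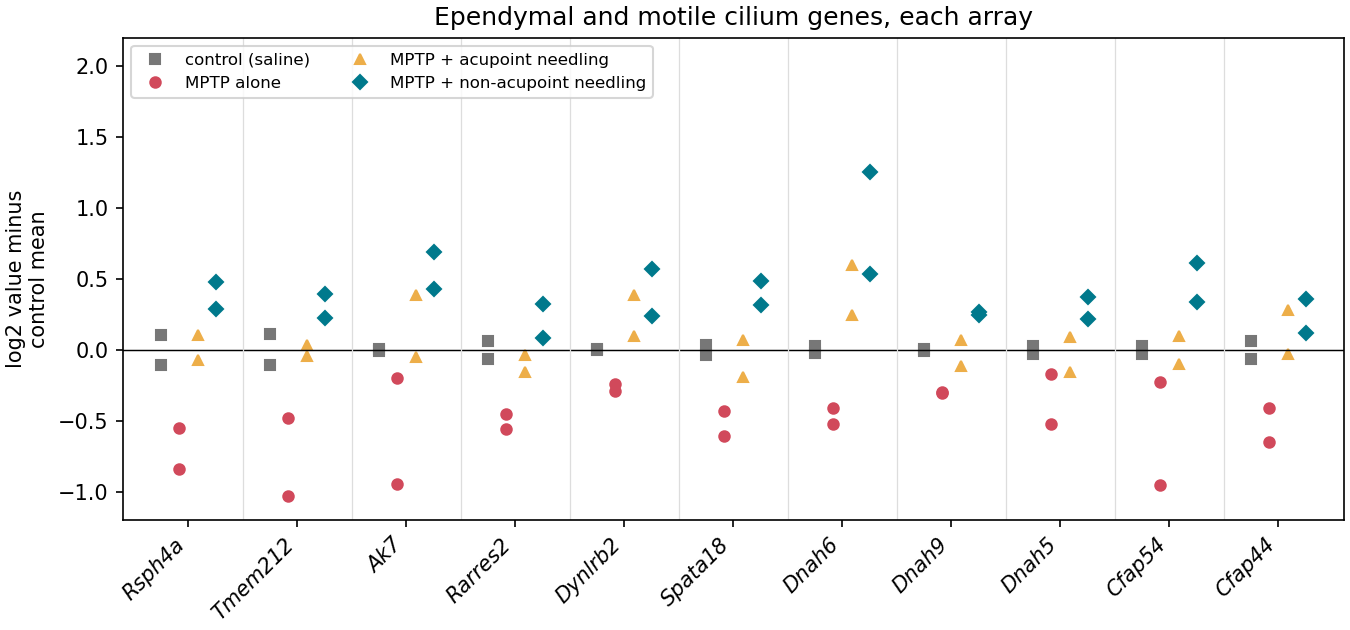
Log2 values on single arrays minus the mean of the 2 control arrays (y axis) for 11 ependymal and motile cilium genes; each point is 1 mouse and colours give the 4 groups. In all 11 genes both MPTP mice lie below both non-acupoint mice, as in 15.4% of all probe sets. An example is Dnah9, at 5.96 on both MPTP arrays and 6.53 and 6.51 on the non-acupoint arrays.

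The promoters of the ciliary genes Dnah6 and Dynlrb2 are shown because they hold the inverted repeat read by RFX factors, GTTGC and GCAAC separated by 3 bases, on which many ciliary genes depend. Dynlrb2, a dynein light chain, read 5.95 and 6.00 with MPTP alone and 6.48 and 6.81 with non-acupoint needling (difference 0.67, SE 0.15). Each stretch is the 250 bases before a RefSeq transcription start in GRCm38.p6, 5′ to 3′ on the gene's strand, with the repeat in capitals. The Dnah6 stretch is chr6:73221632-73221881 on the minus strand and the Dynlrb2 stretch chr8:116504765-116505014 on the plus strand.
Dnah6: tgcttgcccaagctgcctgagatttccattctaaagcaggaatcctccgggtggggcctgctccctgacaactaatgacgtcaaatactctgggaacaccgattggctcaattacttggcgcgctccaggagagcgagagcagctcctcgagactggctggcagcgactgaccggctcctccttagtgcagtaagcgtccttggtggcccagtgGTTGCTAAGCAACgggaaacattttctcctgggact
Dynlrb2: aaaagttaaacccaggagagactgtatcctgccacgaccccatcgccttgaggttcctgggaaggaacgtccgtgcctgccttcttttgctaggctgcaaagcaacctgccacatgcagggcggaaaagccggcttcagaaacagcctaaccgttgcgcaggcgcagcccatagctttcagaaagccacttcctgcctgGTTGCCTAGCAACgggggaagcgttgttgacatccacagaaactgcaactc
The repeat begins 36 bases before the start of Dnah6 and 51 bases before that of Dynlrb2. It was found in 68 of 32851 promoter windows of this length (0.207%), in 2 of the 12 ependymal genes with a window and in 1 of the 12 dynein chains with one. Here and in the promoter counts below, a gene counted if any of its windows held the letters. Shares of genes and of windows are therefore unlike measures. The motif reads the same on both strands and was chosen after the ciliary genes had been seen. Rsph4a had no entry in the promoter table.

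Sgk1 led the genes that were lower. It encodes a serine/threonine kinase that glucocorticoids induce and that regulates ion channels and transporters. Its log2 signal was 9.84 and 9.77 in MPTP mice 1 and 2, and 8.83 and 9.06 in non-acupoint mice 1 and 2. The non-acupoint mice were at the level of the controls (8.86 and 9.07), while the acupoint mice were as high as MPTP alone (9.98 and 9.82). The difference from MPTP alone was -0.86 (SE 0.13, 1.81-fold lower, adjusted p = 0.39) and that from acupoint needling was -0.95 (SE 0.13, adjusted p = 0.96). With each array left out, the first difference stayed between -0.97 and -0.74.

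The Sgk1 promoter is shown because 1 of its 6 windows holds a full glucocorticoid response element of the form searched, AGAACA and TGTTCT separated by 3 bases, printed in capitals. The stretch is chr10:21993640-21993889 in GRCm38.p6, plus strand, from RefSeq, and ends just before a transcription start.
Sgk1: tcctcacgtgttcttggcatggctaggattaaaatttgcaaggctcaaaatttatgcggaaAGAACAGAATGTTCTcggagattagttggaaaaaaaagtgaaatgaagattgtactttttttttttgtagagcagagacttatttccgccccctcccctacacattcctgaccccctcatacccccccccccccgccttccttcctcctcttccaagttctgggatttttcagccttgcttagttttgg
The element begins 189 bases before this start, and its 2 arms are reverse complements of each other. It occurred in 3 of 32851 windows (0.00913%), and Sgk1 was the 1 gene with it among the 17 glucocorticoid targets that had a window. The single arm TGTTCT, which is contained in it, was in 16.1% of windows and in 3 of these 17 genes.

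The other glucocorticoid targets differed in both directions. Of 20 receptors and targets tested, 12 were higher and 8 lower in mean, 1 was higher (background 3.51%) and 3 lower (background 3.07%) at an unadjusted p under 0.05, and the median was 0.02, or -0.08 without MPTP mouse 2. Arrdc2, an arrestin domain protein, read 6.60 and 6.26 with MPTP alone and 6.09 and 5.83 with non-acupoint needling (difference -0.47, SE 0.15). Angptl4, a secreted inhibitor of lipoprotein lipase that was named after its values were seen, differed by -0.25 (SE 0.10). Zbtb16, the zinc finger repressor PLZF, went the other way, from 8.01 and 7.26 to 8.13 and 8.47 (difference 0.67, SE 0.25). Fkbp5, a co-chaperone that limits the glucocorticoid receptor, read 8.09 and 8.42 against 8.31 and 8.33 and differed by 0.06 (SE 0.12). Per1, which is both a clock gene and a target, differed by -0.05 (SE 0.14), and the groups overlapped for both of these genes. In the circadian clock list, 1 of 20 genes had an unadjusted p under 0.05, a share near the background of 6.58%. It was the repressor Cry1 (difference 0.26, SE 0.11), and the list's median was 0.03.

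**Figure D3:**
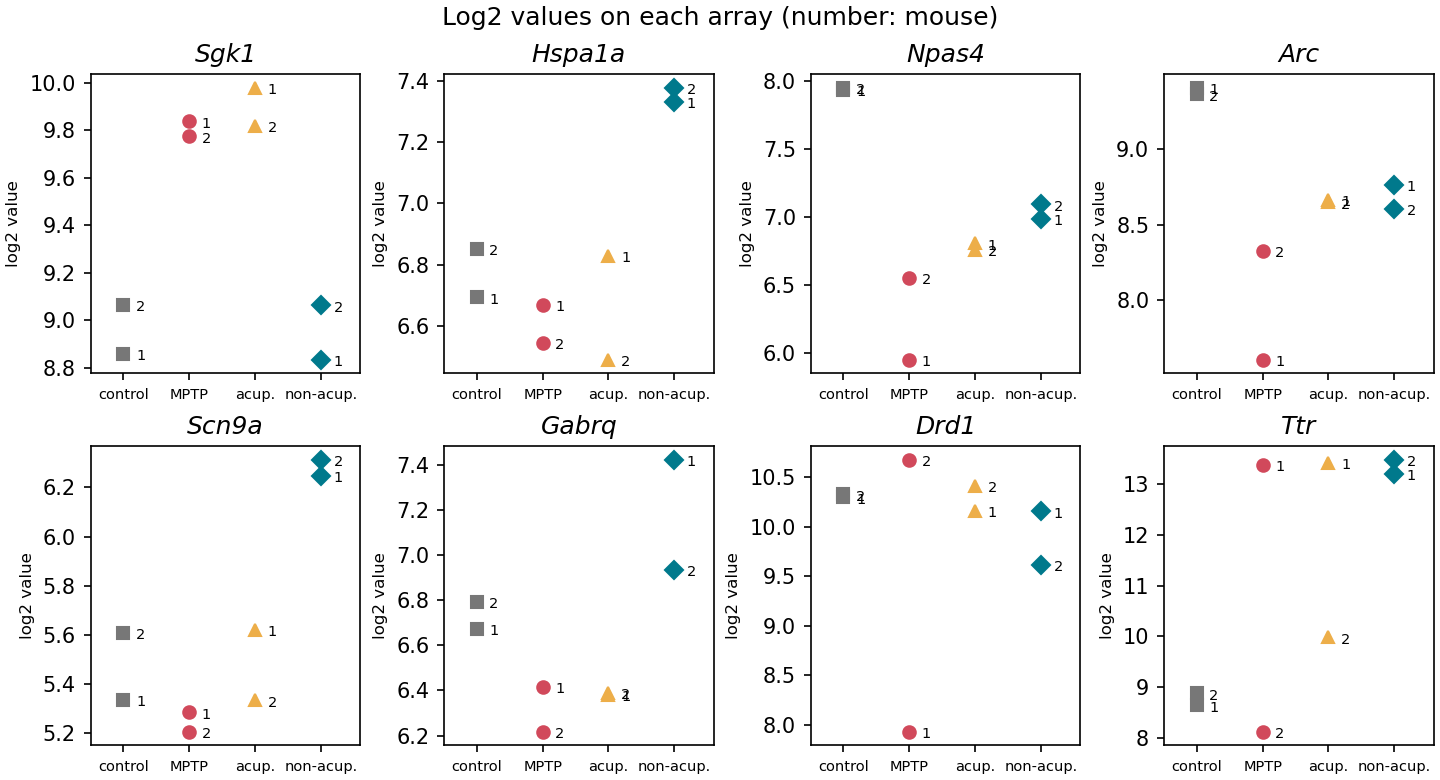
Log2 values (y axis, a separate scale in each panel) of 8 genes on all 8 arrays, with the mouse number beside each point and the 4 groups along the x axis. Sgk1 is high with MPTP alone and acupoint needling (9.77 to 9.98) and low in the other 2 groups, Hspa1a, Scn9a and Gabrq are highest in the non-acupoint mice, and Drd1 and Ttr show MPTP mouse 1 far from MPTP mouse 2.

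Some immediate early genes were higher in mean with non-acupoint needling, led by Npas4 and Arc. Neuronal activity switches these genes on within minutes, and Npas4 is among the most selective for calcium influx. It read 5.95 and 6.55 in MPTP mice 1 and 2, 6.99 and 7.09 in non-acupoint mice 1 and 2, and 7.93 and 7.95 in controls. The needled mice were thus above both MPTP mice and below both controls. The difference from MPTP alone was 0.79 (SE 0.19, 1.73-fold, adjusted p = 0.61), and without MPTP mouse 1 and non-acupoint mouse 2 it was 0.43. Arc, a protein of the postsynaptic cytoskeleton, read 7.60 and 8.33 against 8.77 and 8.61, with controls at 9.41 and 9.36 (difference 0.72, SE 0.22, adjusted p = 0.66), and it stood at 0.36 without MPTP mouse 1. Sik1, a salt-inducible kinase, read 7.67 and 7.81 against 8.12 and 8.17 (difference 0.41, SE 0.13).

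The rest of the list was mixed. Of 33 immediate early genes tested 20 were higher (background 48.5%) and 13 lower in mean, 3 were higher (background 3.51%) and 0 lower at an unadjusted p under 0.05, and the median was 0.15, which was -0.0028 without MPTP mouse 1 and 0.039 without MPTP mouse 2. Fos, the best known member, read 6.86 and 6.65 against 6.74 and 6.92 (difference 0.08, SE 0.18), with the groups overlapping. The Npas4 promoter is shown for its pair of TGACG sites, the core of the cAMP response element TGACGTCA through which CREB acts. Capitals mark TGACG on either strand in chr19:4989972-4990221, minus strand, GRCm38.p6, from RefSeq.
Npas4: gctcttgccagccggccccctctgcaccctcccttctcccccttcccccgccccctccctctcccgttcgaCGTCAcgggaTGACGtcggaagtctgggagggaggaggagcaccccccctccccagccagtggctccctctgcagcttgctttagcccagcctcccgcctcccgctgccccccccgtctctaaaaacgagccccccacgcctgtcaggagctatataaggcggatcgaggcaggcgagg
The 2 sites begin 179 and 169 bases before the start. The 5 letters were in 18 of the 27 immediate early genes with a window and in 17.8% of all windows. The full element was in 2 of these 27 genes and 1.55% of windows. A gene with several windows had more than 1 way to be counted, so the 2 shares are not on the same footing.

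A few heat shock genes were highest in the non-acupoint mice. Heat shock proteins are chaperones that refold damaged proteins. Hspa1a, an inducible HSP70, read 6.67 and 6.54 with MPTP alone and 7.33 and 7.38 with non-acupoint needling. Controls (6.69 and 6.85) and acupoint mice (6.83 and 6.49) were near MPTP alone and below both non-acupoint mice. The difference was 0.75 (SE 0.14, 1.68-fold, adjusted p = 0.52), and the difference from acupoint needling was 0.69 (SE 0.14, adjusted p = 0.96). Hspa1a has a near-identical neighbour, Hspa1b, whose probe set carries both symbols and was not tested, so the 2 genes cannot be told apart here.

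The co-chaperone Dnajb1 read 8.39 and 8.35 against 8.89 and 8.73 (difference 0.44, SE 0.11), and Bag3, an HSP70 partner in selective autophagy, read 6.79 and 6.41 against 6.94 and 7.09 (difference 0.42, SE 0.14). Of 16 heat shock chaperones 13 were higher in mean, 3 were higher at an unadjusted p under 0.05 (background 3.51%) and 9 lay above MPTP alone with no overlap (background 15.4%). The median was 0.07, and without MPTP mouse 1 it was 0.25 with all 16 higher in mean. The Hspa1a promoter is shown with the paired heat shock unit GAA and TTC 2 bases apart in capitals, at chr17:34972157-34972406, minus strand, GRCm38.p6, from RefSeq.
Hspa1a: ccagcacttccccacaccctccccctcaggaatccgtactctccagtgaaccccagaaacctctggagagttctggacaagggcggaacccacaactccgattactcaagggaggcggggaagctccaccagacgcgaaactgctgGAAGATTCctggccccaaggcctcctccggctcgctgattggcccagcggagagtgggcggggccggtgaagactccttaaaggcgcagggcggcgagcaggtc
The pair begins 104 bases before the start and was in 6 of the 13 chaperone genes with a window and in 6.69% of all windows. It was chosen after Hspa1a had been seen. The longer form with 3 units was in 2 of these 13 genes, without Hspa1a, and in 0.466% of windows. The Hspa1a and Hspa1b stretches differed at 3 of 250 bases.

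The stress response of the endoplasmic reticulum held genes of both directions. Of its 14 genes 11 were higher in mean (background 48.5%), 3 higher and 1 lower at an unadjusted p under 0.05 (background 3.51% and 3.07%). The median was 0.21, with a range of 0.15 to 0.29 when each array was left out and 0.098 with the choroid plexus covariate. The disulfide isomerase Pdia4 read 9.29 and 9.50 against 9.98 and 9.69 (difference 0.44, SE 0.16), and the stress-induced Creld2 read 7.34 and 7.78 against 8.12 and 7.89 (difference 0.45, SE 0.18). The master chaperone Hspa5 (BiP) differed by 0.39 (SE 0.16). Trib3, a pseudokinase induced through the ATF4 arm, was lower, from 6.15 and 6.31 to 5.94 and 5.65 (difference -0.44, SE 0.16).

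GABA-A receptor subunits differed in both directions. Gabre, the epsilon subunit, read 5.22 and 5.003 with MPTP alone and 5.94 and 5.89 with non-acupoint needling (difference 0.80, SE 0.11, adjusted p = 0.34). Gabrq, the theta subunit, read 6.42 and 6.22 against 7.43 and 6.94 (difference 0.86, SE 0.17). Gabrd, the delta subunit of extrasynaptic receptors, was lower, from 9.00 and 8.97 to 8.28 and 8.36 (difference -0.67, SE 0.14, adjusted p = 0.58). None of the 3 overlapped between groups, which the rule that named Gabre and Gabrd required. Among all GABA and glutamate receptor subunits tested, 7 lay higher (background 15.4%) and 7 lower (background 17.6%) with no overlap. Of 36 GABA and glutamate receptor subunits tested, 5 were higher (background 3.51%) and 1 lower (background 3.07%) at an unadjusted p under 0.05. The median was 0.11, which turned to -0.04 without MPTP mouse 1 and to -0.02 with the choroid plexus covariate.

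Markers of striatal neurons did not separate the groups, and the 2 MPTP mice lay far apart. Drd1 read 7.93 and 10.68 in MPTP mice 1 and 2 and 10.15 and 9.61 in non-acupoint mice 1 and 2. Both needled mice fell inside the range of the MPTP mice, and the difference was 0.58 (SE 0.76). The same order held for Drd2 (8.15 and 10.54 against 9.98 and 9.61), Penk (11.32 and 13.30 against 13.08 and 12.74) and Tac1 (8.70 and 11.63 against 11.16 and 10.49). Pdyn differed by 0.27 (SE 0.67) and Ppp1r1b, the dopamine-regulated phosphatase inhibitor DARPP-32, by 0.58 (SE 0.74). All 8 direct-pathway and all 5 indirect-pathway markers were higher in mean, with medians of 0.25 and 0.45 and 0 at an unadjusted p under 0.05. Without MPTP mouse 1 these medians turned to -0.77 and -0.74, and without MPTP mouse 2 they were 1.20 and 1.65, so the direction rested on which MPTP mouse was kept. Cholinergic interneurons had a median of 0.60 that was -0.03 without MPTP mouse 1, and GABA interneurons 0.26 that became -0.16. The same held for 22 genes of dopamine receptor and cAMP signalling, with a median of 0.30 that was -0.61 without MPTP mouse 1.

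The dopamine genes are transcribed mainly in the midbrain, so striatal tissue holds little of their RNA. Th, the tyrosine hydroxylase that sets the pace of dopamine production, read 6.66 and 7.10 against 6.92 and 6.45 (difference -0.19, SE 0.27). Slc6a3, the dopamine transporter that takes up the toxic ion, read 6.77 and 5.93 against 5.65 and 5.65 (difference -0.69, SE 0.37, adjusted p = 0.74). Of 11 genes of dopamine synthesis, transport and breakdown 5 were higher and 6 lower in mean, 0 had an unadjusted p under 0.05, and the median was -0.02, or 0.013 after median centring, 0.09 without MPTP mouse 1 and 0.14 without non-acupoint mouse 1.

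Markers of neighbouring tissue varied as much as those of the striatum. The choroid plexus list was higher in mean in 21 of 23 genes, with a median of 1.08. At an unadjusted p under 0.05 there were 3 (background 3.51%), and the median was 0.22 without MPTP mouse 2 and 2.05 without MPTP mouse 1. Its main product Ttr, the thyroxine carrier of cerebrospinal fluid, read 13.39 and 8.12 in MPTP mice 1 and 2 and 13.20 and 13.49 in the non-acupoint mice, with controls at 8.63 and 8.88. MPTP mouse 1 was therefore as high as the needled mice and MPTP mouse 2 was not. Ace, the angiotensin-converting enzyme, read 7.90 and 7.19 against 8.12 and 8.68 (difference 0.86, SE 0.30), the chloride channel protein Clic6 8.49 and 7.72 against 9.06 and 9.62 (difference 1.24, SE 0.51), and the homeobox factor Msx1 differed by 0.46 (SE 0.15). When the choroid plexus mean entered as a covariate, the ependymal median was 0.51 and the septal median 0.58.

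The thalamic list had a median of -0.26 that ran from -1.73 to 1.23 with each array left out. Tcf7l2, a transcription factor of thalamic neurons, read 10.56 and 7.01 against 8.17 and 9.77 (difference 0.19, SE 1.10), and Zic1 read 10.04 and 8.00 against 9.81 and 10.16 (difference 0.96, SE 0.63). Cortical excitatory neuron markers were mixed, with 5 of 11 higher in mean and a median of -0.0075, or 0.027 after median centring and -0.40 without MPTP mouse 1. Slc17a7, the cortical vesicular glutamate transporter VGLUT1, read 9.79 and 9.50 with MPTP alone and 6.61 and 8.84 with non-acupoint needling, and differed by -1.92 (SE 0.63). It was also low in the acupoint mice (7.77 and 8.28), and the 2 non-acupoint mice differed from each other by more than either did from its nearest acupoint mouse. Neurod2, a factor of cortical neurons, differed by -0.42 (SE 0.13), while Rasgrf2, an exchange factor of upper cortical layers, differed by 0.65 (SE 0.18). Of 11 hypothalamic markers, 1 had an unadjusted p under 0.05, beside a background of 6.58%. It was Oxt, the peptide oxytocin, from 7.10 and 7.33 to 9.23 and 8.11 (difference 1.46, SE 0.36). The median of that list was 0.01, or -0.15 without MPTP mouse 2. The 13 meningeal fibroblast markers had a median of 0.12 that ran from -0.22 to 0.32 with each array left out.

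**Figure D4:**
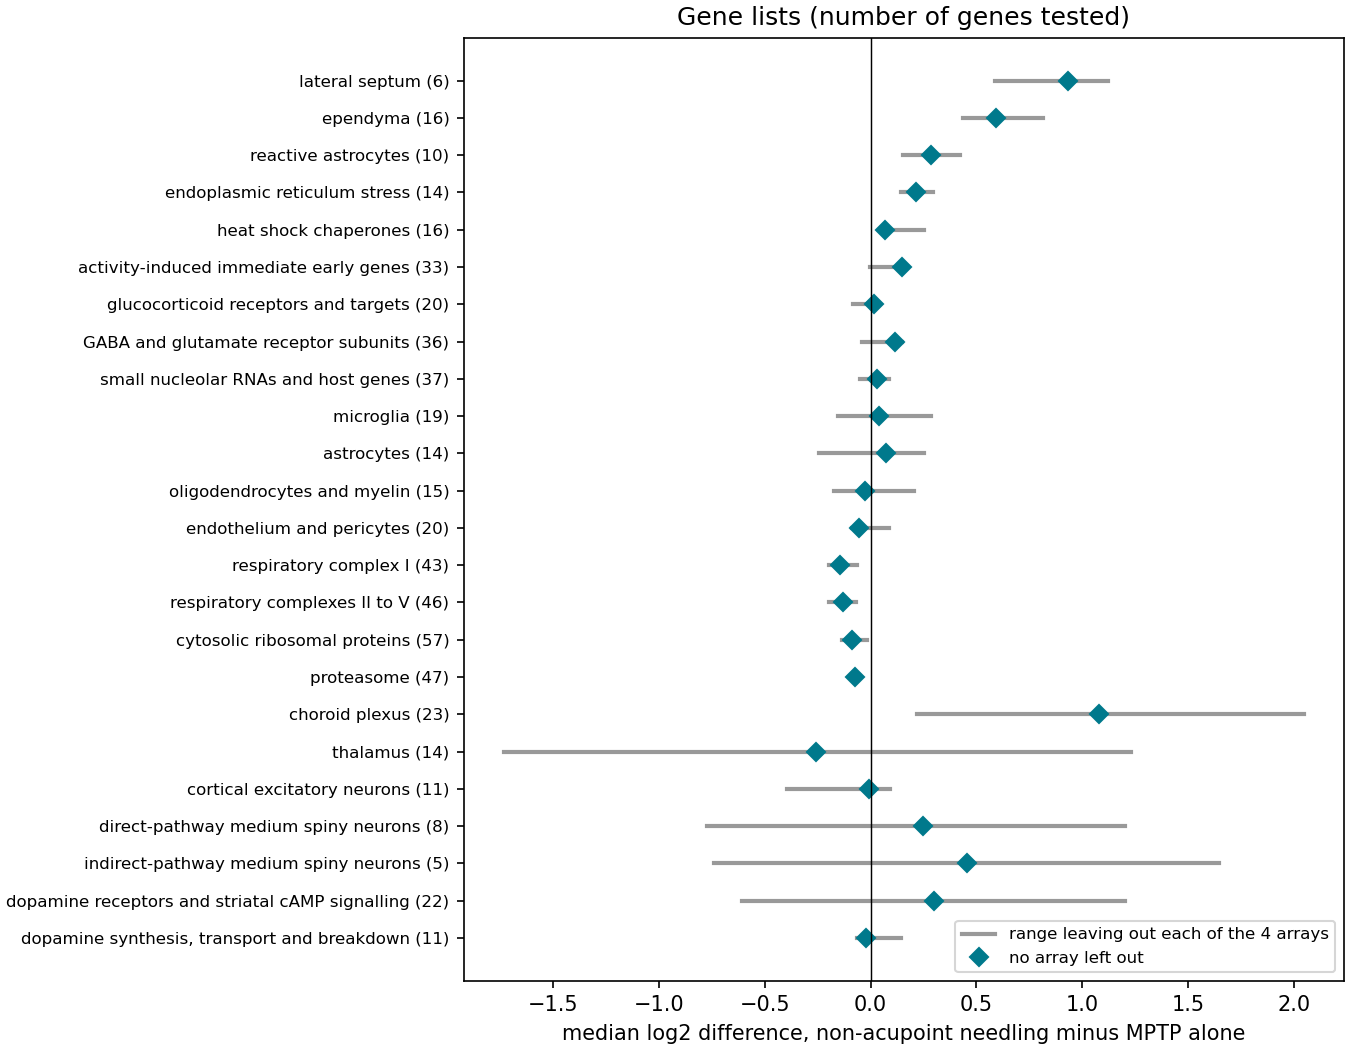
Median log2 difference between non-acupoint needling and MPTP alone (x axis) for 24 gene lists, with the number of genes tested in parentheses; diamonds use all arrays and grey bars span the medians obtained when each of the 4 compared arrays was left out in turn. The ependymal bar (0.44 to 0.82) and the septal bar (0.59 to 1.12) stay above 0. So do those of choroid plexus (0.22 to 2.05), reactive astrocytes (0.15 to 0.42), endoplasmic reticulum stress (0.15 to 0.29) and heat shock chaperones (0.04 to 0.25). The respiratory, cytosolic ribosomal and proteasome bars stay below 0, whereas the bars of striatal neurons, thalamus and several glial lists cross 0.

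Most nuclear-encoded genes of the respiratory chain were slightly lower in mean, and few had a small p. MPP+ acts on complex I, the first proton pump of this chain. Of 43 complex I genes, 36 were lower in mean, where 51.5% of all probe sets were, and in 19 the groups did not overlap (background 17.6%). The median was -0.15, with a range of -0.20 to -0.06 (the latter without MPTP mouse 1) as each array was left out, and after median centring it was -0.11. At an unadjusted p under 0.05 there were 2, a share near the background of 3.07%. These were Ndufa8, from 10.03 and 9.99 to 9.81 and 9.77 (difference -0.22, SE 0.09), and Ndufa2, from 9.31 and 9.24 to 9.02 and 9.09 (difference -0.22, SE 0.09). In complexes II to V 41 of 46 were lower in mean and 2 had an unadjusted p under 0.05, with a median of -0.13 that was -0.07 without MPTP mouse 1. The complex III core subunit Uqcrc1 differed by -0.30 (SE 0.11) and the ATP synthase delta subunit Atp5d by -0.33 (SE 0.11).

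Ribosomal and proteasome genes differed by still smaller amounts. Of 77 mitochondrial ribosomal proteins 59 were lower in mean (median -0.08), of 57 cytosolic ribosomal proteins 45 (median -0.09), and of 47 proteasome genes 37 (median -0.08), where 51.5% of all probe sets were lower. At an unadjusted p under 0.05 these lists held 1, 2 and 1 lower genes and 0 higher, beside a background of 3.07% lower. Median centring reduced the 3 medians to -0.043, -0.054 and -0.041. The cytosolic ribosomal median was -0.017 (24 higher, 33 lower) without MPTP mouse 2 and 0.0027 with the choroid plexus covariate, so its direction was not kept. Mrps27 differed by -0.36 (SE 0.12), Psmb5, the chymotrypsin-like proteasome subunit, by -0.33 (SE 0.12), Rps2 by -0.29 (SE 0.12) and Rpl34 by -0.24 (SE 0.09).

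Several single genes of mitochondria and nucleotide metabolism were among the lower genes named by rule. Mul1, a ubiquitin ligase of the outer mitochondrial membrane, read 8.94 and 8.86 with MPTP alone and 8.46 on both non-acupoint arrays (difference -0.44, SE 0.10, adjusted p = 0.59). Uqcc3, an assembly factor of complex III, read 8.40 and 8.55 against 8.07 and 7.96 (difference -0.46, SE 0.10). Itpa, which clears inosine triphosphate, read 8.90 and 8.89 against 8.17 and 8.22 (difference -0.70, SE 0.18), and its second probe set differed by -0.65. In these 3 genes, and in those of the next paragraph, both needled mice lay under both MPTP mice, which the rule that named them required. Of all probe sets, 17.6% had this order.

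The remaining lower genes have diverse roles. Yju2, a splicing factor, differed by -0.47 (SE 0.10), the kelch-repeat protein Klhdc4 by -0.47 (SE 0.09), Wdr25 by -0.57 (SE 0.13) and Haghl by -0.44 (SE 0.09). The histone gene H2bc18 differed by -0.52 (SE 0.11), the transcription factor Batf2 by -0.52 (SE 0.11) and Fsd1, a microtubule-associated protein, by -0.46 (SE 0.10). Ccl17, a chemokine for T cells, read 6.01 and 5.77 against 5.24 and 5.31 (difference -0.62, SE 0.14). Both acupoint mice were also under both MPTP mice for each of these 8 genes but Ccl17. That comparison shares the MPTP arrays, and the genes were named because those arrays were the higher. The share of all probe sets with this order was not counted, so it cannot show that the needled groups were alike.

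The direction of 4 glial and vascular lists depended on the arrays kept. The astrocyte list had a median of 0.08 (9 of 14 higher in mean), the microglial list 0.04 (15 of 19), the myelin list -0.03 (6 of 15, and 0.0080 after median centring) and the endothelial and pericyte list -0.05 (9 of 20). Without MPTP mouse 1 these 4 medians were 0.25, -0.15 (1 of 19 microglial genes higher), 0.21 and 0.09, and without MPTP mouse 2 they were -0.25, 0.29 (18 of 19), -0.17 and -0.08. Gfap, the intermediate filament of astrocytes, read 8.16 and 7.45 against 8.19 and 8.68 (difference 0.63, SE 0.26). The Gfap difference was 0.98 without MPTP mouse 1, 0.27 without MPTP mouse 2 and 0.25 with the choroid plexus covariate. Sox9, an astrocyte transcription factor, read 8.23 and 8.39 against 8.67 and 8.72 (difference 0.39, SE 0.11). The 10 markers of reactive astrocytes that passed the filter, of 14, were all higher in mean (median 0.29, 0.15 to 0.42 with each array left out, and 0.097 with 7 higher under the choroid plexus covariate). The 3 at an unadjusted p under 0.05 (background 3.51%) were the complement gene C4b (0.44, SE 0.11), the protease inhibitor Serpina3n (0.55, SE 0.17) and Vim (0.31, SE 0.11). The 13 interferon-stimulated genes had a median of 0.10, or -0.05 without non-acupoint mouse 2, with 0 at an unadjusted p under 0.05. The microglial protein Aif1 differed by 0.03 (SE 0.15) and the myelin protein Mbp by 0.06 (SE 0.11), and both overlapped. The 7 oligodendrocyte precursor markers had a median of 0.11, and 0.13 to 0.23 with each array left out. At an unadjusted p under 0.05, 2 of them were higher (background 3.51%). Of these, Gpr17 read 7.92 and 7.93 against 8.29 and 8.31 (difference 0.37, SE 0.09), and Sox6 differed by 0.33 (SE 0.11).

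In vessels, the pericyte potassium channel subunit Kcnj8 read 6.71 and 6.67 against 6.17 and 6.18 (difference -0.51, SE 0.12). The endothelial genes Kdr, a receptor for VEGF, and Slco1c1, a thyroxine transporter, differed by 0.39 (SE 0.15) and 0.51 (SE 0.20). Of the 20 endothelial and pericyte genes, 9 were higher and 11 lower in mean, with endothelial genes on both sides. At an unadjusted p under 0.05, 2 were higher (background 3.51%) and 2 lower (background 3.07%). Among 17 neurotrophic genes 3 were higher (background 3.51%) and 0 lower at an unadjusted p under 0.05, namely Fgf2 (0.39, SE 0.11), the BDNF receptor Ntrk2 (0.29, SE 0.11) and the neurturin receptor Gfra2 (0.47, SE 0.18), and the list's median was 0.03, or -0.07 without non-acupoint mouse 1. Among 23 antioxidant genes the 2 with an unadjusted p under 0.05 (background 3.51% higher) were Gpx3 (0.66, SE 0.17), the secreted glutathione peroxidase, and Slc7a11 (0.48, SE 0.15), the cystine transporter, and the median was 0.01.

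Small nucleolar RNAs, which guide modification of ribosomal RNA, split in direction. Of 37 tested, of 57 on the array, 5 were higher (background 3.51%) and 1 lower (background 3.07%) at an unadjusted p under 0.05, and the median was 0.03, or -0.05 without non-acupoint mouse 1. Snord22 read 6.35 and 6.63 against 7.10 and 7.22 (difference 0.67, SE 0.13), and Snord57 read 9.22 and 9.04 against 9.67 and 9.72 (difference 0.57, SE 0.12). Both were also higher in the acupoint mice, at 7.46 and 7.35 for Snord22 and 9.74 and 9.96 for Snord57. That comparison shares the MPTP arrays.

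The needle site itself was compared by setting the non-acupoint mice against the acupoint mice. With limma, 0 of 16342 probe sets (0%) passed. At an unadjusted p under 0.05 there were 526 (3.22%), with 347 higher (2.12%) and 179 lower (1.10%) at the hips, fewer than the 817 expected with no difference. The spread in this test is shared by all 4 groups. Between the MPTP arrays 5.07% of probe sets differed by at least 1, against 0.441% and 0.367% in the acupoint and non-acupoint groups. A count below 817 therefore cannot show that the sites were alike. The genes with the smallest p-values that did not overlap were Sgk1, Ccl17, Abcc3, Ccdc110 and Atp5md on the lower side and Scn9a, Gabrq, Hspa1a, Tnfsf10 and Zfp36l1 on the higher. Scn9a differed by 0.80 (SE 0.14), Gabrq by 0.80 (SE 0.17) and Tnfsf10, the death ligand TRAIL, by 0.60 (SE 0.11), each with an adjusted p of 0.96. Tnfsf10 read 5.41 and 5.53 with acupoint needling, 6.06 and 6.07 with non-acupoint needling, and 5.68 and 5.46 with MPTP alone. Ccl17 differed by -0.63 (SE 0.14) between the sites, with the non-acupoint mice lower. For Glp1r the 2 sites differed by 0.25 (SE 0.21) and for Arc by 0.03 (SE 0.22), so in these genes the sites were not separated beyond the spread, and each differed from the same 2 MPTP arrays.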

How the data were processed

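Total RNA from the bilateral striata of 8 mice (300 ng each, 2 mice in each of 4 groups, taken from larger treatment groups) was labelled for Affymetrix whole-transcript arrays, per the labels. The deposited values are log2 signals that the authors made with Affymetrix Expression Console and RMA, per the submitters' processing notes. RMA subtracts background, makes the distributions of the arrays alike and summarises probes, which compresses low signals. Versions, scan dates and the array order are not given in the sources used here, so no batch could be examined. The labels name separate mice, and the precision rests on 2 arrays per group.

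Probe sets were named from the platform annotation (21789 with 1 symbol, 1621 with several, 12147 with none), and 21698 of the 21789 matched RefSeq by gene ID. Probe sets with a mean log2 value over all 8 arrays of at least 5.25 (the 25th percentile) entered a linear model of the 4 groups over all 8 arrays, fitted and moderated with limma (version 3.58.1, under R 4.3.3; 4 residual and 2.94 prior degrees of freedom) with Benjamini-Hochberg adjustment over 16342 probe sets and a threshold of 0.05. An exact permutation test of 2 against 2 arrays cannot go below a two-sided p of 0.333, so none was used. The test was checked on data made with known differences.

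Named genes were the 12 higher and 12 lower with the smallest p and no overlap, the 8 on each side with the widest gap between groups, a fixed set of striatal, dopamine and stress genes, up to 3 per gene list, and 5 on each side against acupoint needling. Genes named outside this rule were chosen after their values were seen: Zic5, Nrp1, Nrp2, Sema3c, Dnah9, Dnah5, Cfap54, Cfap44, Ak7, Hspa5, Dynlrb2 and Angptl4. Not every gene the rule gives is printed. A list uses 1 probe set per gene, the brightest. The comparison and the lists were chosen with earlier results of these data known, so their counts are descriptions. Promoter letters came from RefSeq windows of 300 bases, of which the 250 before the start were searched.

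Same-numbered MPTP and non-acupoint mice did not deviate together (r = -0.49). For acupoint mice r was 0.40 with MPTP and -0.40 with non-acupoint mice, and for controls 0.07 and 0.27. The signs were mixed, so numbers were taken only to name mice. Alternatives were the filter, the probe set per gene, all probe sets, the 4 compared arrays alone, other eBayes settings, array weights, other scalings, a replicate block, each array left out, and marker means as covariates.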

Additional observations from a re-analysis of the deposited data

Results flagged for a closer look

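In 4 named genes both non-acupoint mice lay on one side of both MPTP mice and both acupoint mice on the other. The share of all probe sets with this order was not counted. The difference between non-acupoint and acupoint needling was -0.46 for Abcc3, an organic anion transporter, -0.43 for Atp5md, a small subunit of ATP synthase, -0.48 for Ccdc110 and -0.34 for the ribosomal protein Rpl34, each with an adjusted p of 0.96 in limma. In all 4 the non-acupoint mice were the lower. The order alone does not show opposite changes. For Ccdc110 the acupoint mice (5.89 and 5.90) were barely above MPTP alone (5.88 and 5.77), a difference of 0.07 (SE 0.11). For Abcc3 acupoint needling differed from MPTP alone by 0.18 (SE 0.10). Atp5md has 3 probe sets, of which 1 is given here. The first 3 were named because they differed between the needle sites, so for them this order is a description.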

How the results depend on the processing

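The number of probe sets that passed was 0 under all alternatives but 2, namely 5 with the thalamic marker mean as a covariate and, over the fits with an array left out, 0 to 794, the latter without MPTP mouse 2. Of 110 genes named, 37 passed without MPTP mouse 2 and 5 with the thalamic covariate. At an unadjusted p under 0.05, the count of higher probe sets was 353 with the 4 arrays alone, 290 with array weights, 1394 with the thalamic and 1184 with the choroid plexus covariate, and 311 to 2001 with an array left out, lowest without non-acupoint mouse 2 and highest without MPTP mouse 2. The count of lower ones was 286 with a stricter filter, 794 with all probe sets, 188 with the 4 arrays alone, 170 with array weights, 301 after median centring, 1055 and 1073 with the thalamic and choroid covariates, and 203 to 1780 with an array left out. The causes of these shifts were not tested. With the replicate number as a block, the pairing being only a number, 0 probe sets passed and 513 higher and 458 lower had an unadjusted p under 0.05. With the numbers crossed, an alternative added after the data were seen, 0 passed and 638 higher and 444 lower did. Against acupoint needling 0 passed with no filter, a stricter filter and the block, which were the alternatives run there.

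Some differences changed sign. With the choroid plexus covariate Fos was -0.16, Per1 0.087, Tcf7l2 -1.45, Th 0.21, Ttr -0.11 and Zic1 -0.026. With arrays left out, the lowest and highest differences were -0.79 and 1.95 for Drd1, -0.74 and 1.65 for Drd2, -0.92 and 1.46 for Pdyn, -0.39 and 1.60 for Penk, -0.75 and 1.92 for Ppp1r1b, -0.81 and 2.12 for Tac1, -1.58 and 1.96 for Tcf7l2, -0.043 and 5.22 for Ttr, -0.057 and 1.98 for Zic1, -0.43 and 0.040 for Th, -0.27 and 0.20 for Aif1, -0.11 and 0.23 for Fkbp5, -0.026 and 0.18 for Fos, -0.0024 and 0.12 for Mbp, and -0.24 and 0.13 for Per1. With 2 arrays per group, no difference passed the adjusted threshold in the main fit, including that of Avpr1a (1.04, SE 0.11). Differences within about 2 SE did not reach an unadjusted p under 0.05 either.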
